A study of Homo sapiens with 12 samples.

Results

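Cholesterol synthesis and its control were examined through 8 genes of the sterol pathway in hESCs, named by symbol and looked up in the deposited count table. They are 5 genes of the SREBP control circuit (SREBF1, SREBF2, SCAP, INSIG1 and INSIG2) and 3 enzymes of sterol synthesis (HMGCS1, SQLE and CYP51A1). All 8 were found among the 28278 genes of the table, and all 8 were among the 15916 genes with enough reads to be tested. The genes were taken by name and not by a threshold on their values, but the set was put together with earlier results of these data known.

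The cells were WA26, a human embryonic stem cell line, either WT or with UBQLN1, a ubiquitin-binding shuttle factor for the proteasome, knocked out by CRISPR-Cas9 (UBQLN1 KO). There were 4 groups of 2 RNA-sequencing libraries, namely WT without treatment, KO without treatment (both at normal O2), KO kept at 5% O2, and KO given N-acetylcysteine (NAC), a thiol antioxidant. The study picked more than one clone of each genotype, and the labels do not tie a library to a clone or give the duration, the NAC dose or a vehicle. By the study's text the low-oxygen cultures were sequenced after a day, whereas its scheme shows both treatments over several passages and DMSO as the control, so exposure time and vehicle may differ between the groups compared. P-values measure the spread between these libraries, which may be technical, and WT cells under 5% O2 or NAC were not analysed here, so each treatment is described in KO cells only. UBQLN1 itself was at 221 and 197 CPM (read counts normalized to library size, with TMM scaling) in WT, 42.3 and 43.5 in KO, 51.9 and 47.7 at 5% O2 and 62.4 and 49.3 with NAC. The 6 KO libraries all sat far below both WT libraries, with a log2 fold change of -2.29 ± 0.12 (SE) between untreated KO and WT.

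Library totals ran from 31236968 to 41639350 counts. All 8 markers of pluripotent stem cells on the list used were detected in every library, with summed levels of 5260 to 6300 CPM, and the hepatocyte markers ALB and TTR were at 0 in all 8 libraries. Other markers moved with the groups. The 4 neuroectoderm markers summed to 471 and 444 CPM in untreated KO, 279 and 243 in WT, 230 and 304 at 5% O2 and 139 and 155 with NAC, mostly through NES, an intermediate filament gene. The 4 mesoderm markers summed to 119 and 124 CPM in WT and 72.4 and 72.3 CPM in untreated KO. That drop lay in KDR (116 and 121 against 67.8 and 67.7 CPM). TBXT, MIXL1 and EOMES, at 2.82 CPM or less, were higher in both KO libraries. DNMT3B, a DNA methyltransferase gene on the stem cell list, was at 2550 and 2460 CPM in untreated KO against 1140 and 1420 CPM with NAC. On that list SOX2 and NANOG were also lower in both NAC libraries. DPPA4, ZFP42 and TDGF1 were higher in both, and POU5F1 and LIN28A overlapped. The part of these shifts in the results was not tested. NAC replicate 1 stood apart from the rest. Its 10 mesenchymal or fibroblast markers summed to 974 CPM against 547 to 650 CPM in the other 7 libraries, and DCN, a matrix proteoglycan gene, was at 47.2 CPM there and at 0 in the other 7. Results that rest on this library are given with and without it. The NAC and 5% O2 libraries also differed from untreated KO by a trend over all genes with the GC content of the transcript, described with the results it touches.

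In human cells SREBP-2, the product of SREBF2, and SREBP-1, the product of SREBF1, are made as membrane-bound precursors in the endoplasmic reticulum. SCAP, a cholesterol sensor, carries them to the Golgi when membrane sterol is low, and proteases release the transcription factor part there. When sterol is plentiful, INSIG1 and INSIG2 hold SCAP in the endoplasmic reticulum. Released SREBP-2 activates genes of the whole sterol pathway, INSIG1 among them, so that the circuit feeds back on itself. INSIG2 is less dependent on SREBP than INSIG1 and is known as a target of hypoxia-inducible factors. Sterol synthesis consumes oxygen at several steps, among them those of SQLE and CYP51A1.

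Promoter sequence from RefSeq (build GRCh38.p14) was matched for 7 of the 8 genes, and 4 stretches are shown that carry short motifs usually looked for in this circuit. They are the sterol response element (the first 10 of the capitals in the SREBF2 line, and the looser form TCACNCCAC), the CCAAT box of NF-Y, the E-box CACGTG and the cores ACGTG and GCGTG that occur in hypoxia response elements. Each was searched on both strands from 250 bases before to 50 bases after the start that RefSeq gives for the promoter. For SCAP and CYP51A1 this window lies inside the RefSeq span of the gene, and their stretches, which also carry some of these motifs, are not shown. Capitals mark the matches, which overlap where a capital run is longer than 1 motif, and a match on the minus strand reads as its reverse complement, so that ATTGG stands for the CCAAT box. The stretches lie at chr22:41832961-41833013 (plus strand, SREBF2), chr7:155297663-155297838 (plus, INSIG1), chr2:118088302-118088390 (plus, INSIG2) and chr5:43313498-43313577 (minus, HMGCS1), all upstream of the gene. By the RefSeq gene coordinates on the same genome, these genes span chr22:41833105-41907305, chr7:155297878-155310235, chr2:118088471-118110997 and chr5:43287470-43313412.
SREBF2: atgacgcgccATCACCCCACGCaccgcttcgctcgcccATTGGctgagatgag
INSIG1: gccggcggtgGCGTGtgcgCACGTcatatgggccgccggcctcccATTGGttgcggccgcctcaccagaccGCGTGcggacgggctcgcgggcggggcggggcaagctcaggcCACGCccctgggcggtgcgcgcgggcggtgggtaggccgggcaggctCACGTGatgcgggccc
INSIG2: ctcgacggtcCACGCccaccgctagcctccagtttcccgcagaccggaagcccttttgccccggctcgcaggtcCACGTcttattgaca
HMGCS1: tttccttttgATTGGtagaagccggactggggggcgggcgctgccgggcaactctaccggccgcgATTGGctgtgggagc

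Of the 7 promoters, the one of SREBF2 held the sterol response element, at -134 to -125 counted from the first base of the gene, with a CCAAT box at -106 to -102. That exact element was in 0.0476% of 27305 promoters of the same length, and the looser form was in 1.15%. The CCAAT box was in 3 of the 7, those of SREBF2, INSIG1 and HMGCS1, and in 35.7% of all promoters. Of 17 sterol synthesis genes with a promoter in the table, 12 held it. The sterol response element, exact or looser, was in 0 of these 17. The core ACGTG was in the promoters of INSIG1, INSIG2 and SCAP, in 2 of the 17 and in 21.6% of all promoters. The core GCGTG was in 5 of the 7, 13 of the 17 and 36.3% of all promoters. The E-box was in 2 of the 7, 2 of the 17 and 7.43% of all promoters. Such matches describe letters in a window and say nothing of binding in these cells.

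Levels can be set against each other between genes only per length. In untreated KO cells, the level per kb of canonical transcript was highest for HMGCS1, which makes HMG-CoA at the start of the pathway, at 112 ± 6.78 CPM per kb (SD, n = 2). SREBF2 followed at 97.3 ± 0.18 CPM per kb, SQLE at 82.4 ± 0.49, CYP51A1 at 57.8 ± 0.58, SCAP at 50.6 ± 1.13, INSIG1 at 38.0 ± 0.43 and SREBF1 at 36.5 ± 0.90. INSIG2 was far lower than all of these, at 1.47 ± 0.098 CPM per kb. Neighbours in this order did not overlap in untreated KO, the closest pair being INSIG1 (37.65 and 38.25 CPM per kb) and SREBF1 (35.9 and 37.2). WT had the same order, with CYP51A1 (54.6 and 49.4) and SCAP (48.2 and 49.5) overlapping. At 5% O2, SREBF2 (95.8 and 103) overlapped with SQLE (97.3 and 99.96). With NAC both SQLE (118 ± 10.1) and CYP51A1 (93.7 ± 4.01) lay above SREBF2 (72.6 ± 1.38). INSIG1 lay above SCAP at 5% O2 (47.5 and 47.9 against 42.6 and 46.7) and with NAC (51.4 and 47.5 against 38.0 and 46.0).

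**Figure D1:**
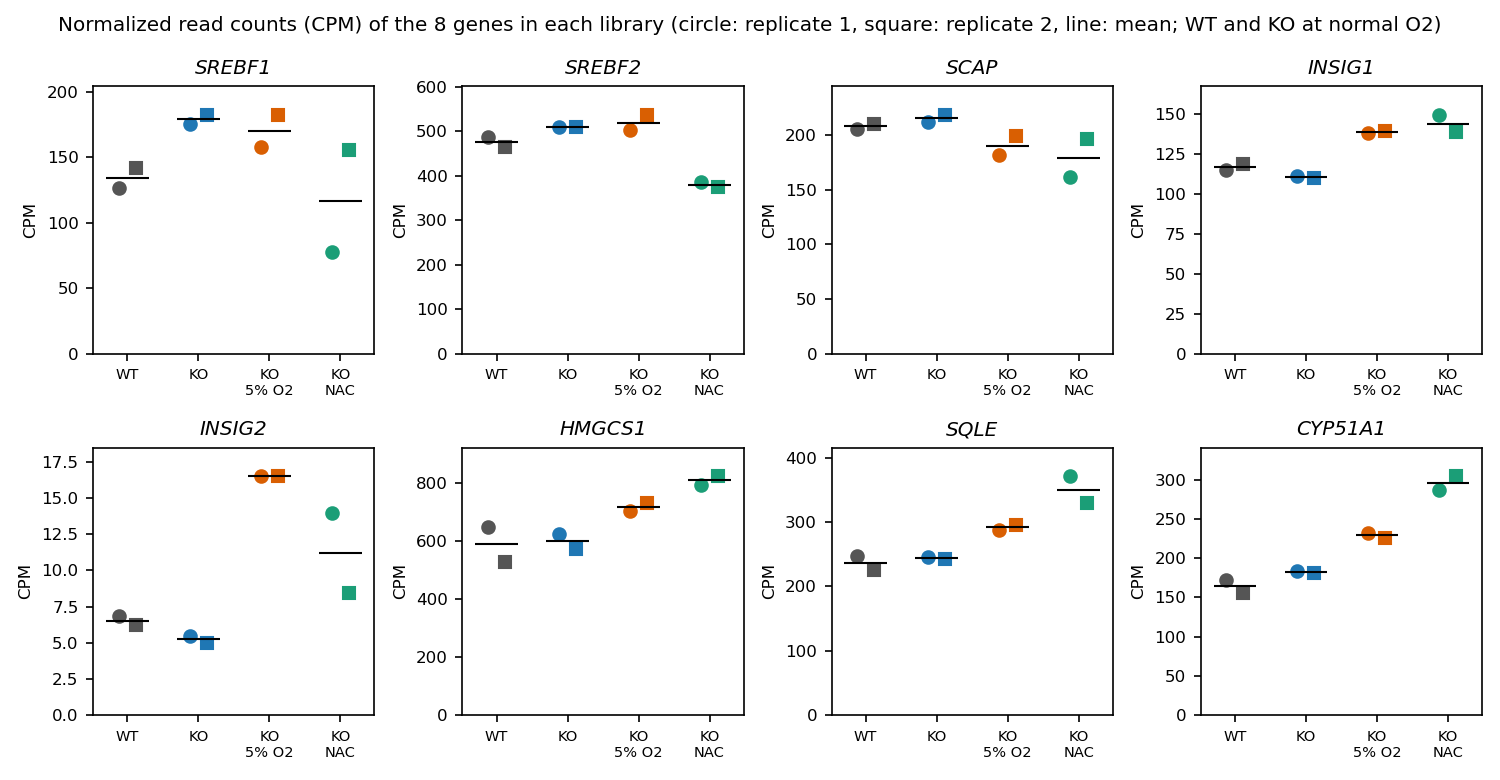
Normalized read counts (CPM, y axis from 0) of the 8 genes in each of the 8 libraries, with WT and KO at normal O2, 5% O2 in KO and NAC in KO along the x axis, replicates as circles and squares and the group mean as a line. INSIG2 is at 16.5 CPM in both 5% O2 libraries against 5.47 and 4.98 CPM in untreated KO, the 3 enzymes are highest with NAC, and the NAC libraries of SREBF1 and INSIG2 lie far apart.

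To ask whether loss of UBQLN1 touched this pathway, untreated KO cells were compared with untreated WT cells at normal O2. None of the 8 genes passed an adjusted p under 0.05 in the quasi-likelihood test of edgeR, adjusted by Benjamini-Hochberg over all tested genes, where 1.96% of all tested genes did. None passed an unadjusted p under 0.05 in this fit either, and DESeq2 called none of them. The log2 fold changes of the 8 genes ran from -0.32 to 0.42, with a median of 0.049 against a median of -0.0024 for all tested genes. In whole cultures such as these, fewer cells of a type and less RNA per cell cannot be told apart. Where libraries are said to lie apart or not to overlap, here and below, this only describes 2 libraries against 2. The share of all tested genes that separate in this way was not counted.

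SREBF1 had the largest difference of the 8. It was at 127 and 142 CPM in WT and at 176 and 182 CPM in KO, so that both KO libraries lay above both WT libraries. The log2 fold change was 0.42 ± 0.23 (SE), with a 95% interval of -0.077 to 0.91 and an adjusted p of 0.364 in edgeR. With no filter on low counts, or with the WT and KO libraries fitted alone, the same difference had adjusted p-values of 0.00195 and 0.0148 in edgeR. The fit of these 4 libraries alone leaves out the NAC libraries, in which SREBF1 had its widest spread, whereas the fit with no filter keeps them. Why the adjusted p-values fell in these fits was not tested.

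SREBF2 was at 486 and 465 CPM in WT and at 509 and 510.3 CPM in KO (log2 fold change 0.099, interval -0.069 to 0.27). SCAP was at 205 and 210.4 CPM in WT and at 212 and 218.5 CPM in KO (0.050, interval -0.17 to 0.27). For both genes the KO libraries lay above the WT libraries by less than the interval of the difference.

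INSIG1 was at 114.5 and 118.5 CPM in WT and at 111 and 109.5 CPM in KO (log2 fold change -0.078, interval -0.26 to 0.10). INSIG2, at 6.83 and 6.22 CPM in WT and 5.47 and 4.98 CPM in KO, had a log2 fold change of -0.32 with an interval of -0.80 to 0.16. Both retention factors were lower in each KO library than in each WT library without passing the test, which is given as description only. INSIG2 had 202 to 240 counts in these 4 libraries, the fewest of the 8 genes, and a 2-fold change lies outside its interval.

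Among the enzymes, HMGCS1 was at 648 and 529 CPM in WT and 625 and 574 CPM in KO, and SQLE, the squalene epoxidase, was at 247 and 225 CPM in WT and 245 and 243 CPM in KO. Both overlapped between the genotypes, with log2 fold changes of 0.027 (interval -0.19 to 0.24) and 0.047 (-0.15 to 0.24). CYP51A1, the lanosterol demethylase, was at 172 and 156 CPM in WT and 184 and 181 CPM in KO, with both KO libraries higher (0.15, interval -0.030 to 0.34). With the trend on transcript length and GC content removed, CYP51A1 was at 0.22 (interval 0.074 to 0.37). Its p in edgeR was then 0.0074 before adjustment and 0.141 after it. A share of 50.1% of the 31-base words of the CYP51A1 transcript also occurs elsewhere on the chromosomes, so its counts are less certain than those of the other 7 genes, for which this share was at most 2.35%.

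In the wider pathway 1 gene passed in this comparison, where 1.96% of all tested genes did. Of 21 tested genes of a 22-gene sterol synthesis list, which includes the 3 enzymes, none passed the test (median log2 fold change -0.026), nor did any of the 17 genes of the SREBP control list or the 14 of sterol uptake and transport. Of 8 tested genes of sterol efflux and storage, 1 was higher, the cholesterol exporter ABCA1, at 13.9 CPM in KO against 8.25 CPM in WT (log2 fold change 0.75 ± 0.16, adjusted p = 0.0384 in edgeR). Its adjusted p was 0.0819 once the trend with transcript length and GC content was removed, and it was not called with upper quartile scaling or with any 1 of the 4 libraries left out. No gene of fatty acid synthesis (15 tested) or of the nonsterol branches of the mevalonate pathway (11 tested) passed. DESeq2 and the fit with no filter each called 2 of these 15 higher, FASN and PNPLA3. No filter also called LIPA, of uptake and transport, lower. Over all genes DESeq2 called 545 of 15916 higher, and no filter 782 of 21141. In edgeR with the filter FASN was at 0.37 (adjusted p = 0.0888) and PNPLA3 at 0.49 (adjusted p = 0.0737).

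KO cells at 5% O2 were compared with KO cells at normal O2 to see how low oxygen moved the pathway, and INSIG2 had the largest difference of the 8 genes. It was about 3-fold higher at 5% O2, while CYP51A1 and INSIG1 were higher by much less, and HMGCS1, SQLE, the SREBF genes and SCAP did not pass the test. In all, 3 of the 8 genes were called higher (INSIG2, INSIG1 and CYP51A1) and none lower, where 3.68% of all tested genes were higher and 7.81% changed in either direction. The median of the 8 genes was 0.26 on the log2 scale against -0.00025 for all tested genes.

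INSIG2 had 202 and 205 counts in untreated KO cells (5.47 and 4.98 CPM) and 673 and 530 counts at 5% O2 (16.5 and 16.5 CPM). The 5% O2 libraries were nearly equal to each other and far above the untreated ones. The fold was 3.16, or 1.66 ± 0.22 on the log2 scale (interval 1.18 to 2.14), with an adjusted p of 0.00309 in edgeR's quasi-likelihood test. It was the 1 gene of the 8 that also met the study's own thresholds (a change past 1 on the log2 scale with p under 0.05 before adjustment), met by 2.02% of tested genes. With the length and GC trend removed it stayed called, at 1.41 (adjusted p = 0.0143 in edgeR). Without untreated KO replicate 1 or 5% O2 replicate 1 the size was 1.73 and 1.66, but the adjusted p rose to 0.054 and 0.0665.

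INSIG1 was at 111 and 109.5 CPM in untreated KO cells and at 138 and 139 CPM at 5% O2. These groups were narrow and did not overlap, and the gene was 1.26-fold higher (log2 fold change 0.33 ± 0.083, adjusted p = 0.0362 in edgeR). CYP51A1 was at 184 and 181 CPM against 232 and 226 CPM, also without overlap (0.33 ± 0.084, adjusted p = 0.0373 in edgeR). Neither call held with any 1 of the 4 libraries left out (adjusted p 0.109 to 0.286), although their log2 fold changes stayed between 0.31 and 0.35.

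HMGCS1 was at 625 and 574 CPM in untreated KO cells and at 703 and 731 CPM at 5% O2, and SQLE was at 245 and 243 CPM against 288 and 296 CPM. Both enzymes were higher in each 5% O2 library than in each untreated one. Both had a log2 fold change of 0.26, with adjusted p-values of 0.128 for HMGCS1 and 0.0924 for SQLE in edgeR. SQLE passed with DESeq2 (adjusted p = 0.0457), and both passed in edgeR with the compared groups fitted alone (adjusted p = 0.0263 for HMGCS1 and 0.0235 for SQLE).

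The carriers and transcription factors showed another picture. SREBF1 was at 176 and 182 CPM against 158 and 183 CPM, and SREBF2 at 509 and 510.3 CPM against 502 and 537 CPM. Both overlapped between the groups, with log2 fold changes of -0.071 (interval -0.56 to 0.42) and 0.028 (-0.14 to 0.20). SCAP was at 212 and 218.5 CPM against 181 and 199 CPM, lower in both 5% O2 libraries, with a log2 fold change of -0.18 (interval -0.40 to 0.039, adjusted p = 0.294 in edgeR).

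**Figure D2:**
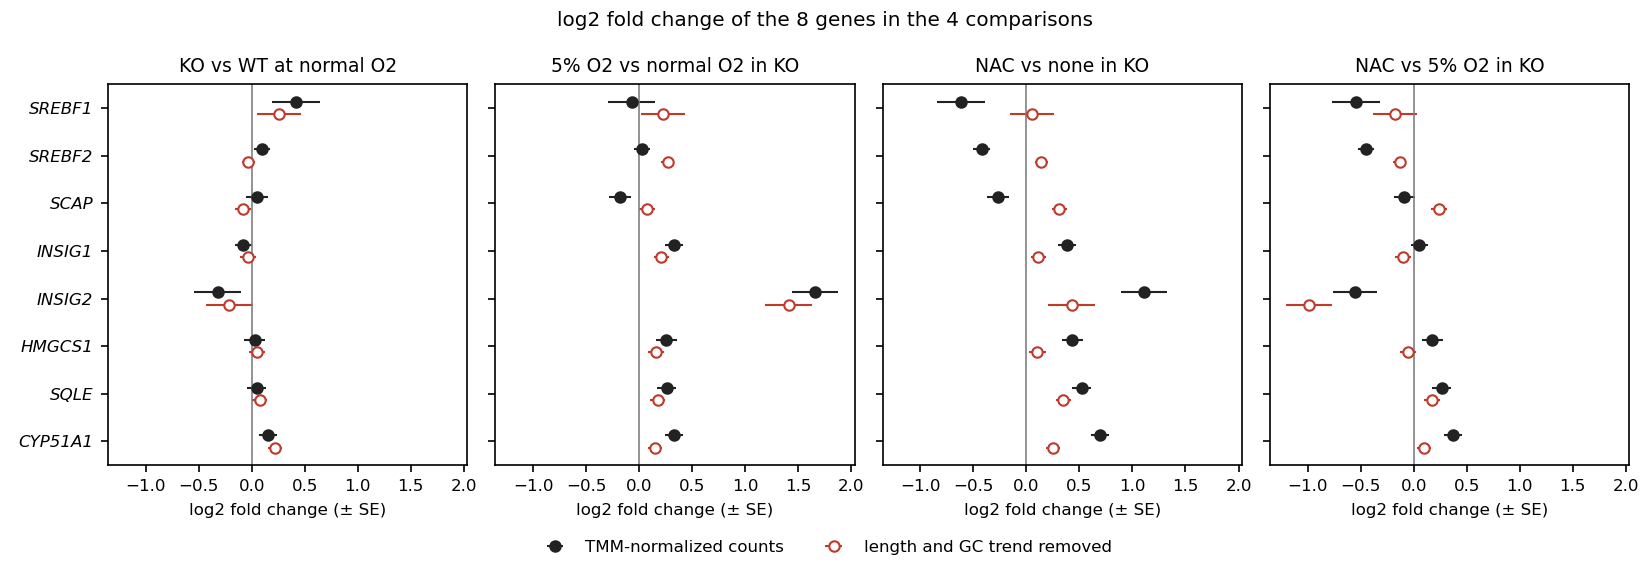
log2 fold change (x axis, bars ± SE) of the 8 genes in each of the 4 comparisons, with TMM-normalized counts as filled black points and counts with the length and GC trend removed as open red points. INSIG2 at 5% O2 is at 1.66 and 1.41 in the 2 versions, whereas SREBF1, SREBF2 and SCAP with NAC are at -0.62, -0.42 and -0.27 in the first and at 0.06, 0.14 and 0.31 in the second.

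Part of these smaller differences followed the base composition of the transcripts. Over 15021 genes with a known canonical transcript, log2 fold changes at 5% O2 fell with GC content, with a median of 0.12 for the 5481 genes under 45% GC and -0.15 for the 4821 genes over 55% GC. INSIG2 (36.3% GC), HMGCS1 (39.0%), CYP51A1 (41.1%) and INSIG1 (44.8%) are on the AT-rich side, SQLE is at 46.5%, and SREBF2 (58.1%), SCAP (61.7%) and SREBF1 (63.2%) are GC-rich. With a smooth trend on length and GC removed, 1 of the 8 genes was called (INSIG2), where 1.49% of all tested genes were, and CYP51A1 and INSIG1 were at 0.15 and 0.21 with adjusted p-values of 0.277 and 0.17 in edgeR. SREBF2 then stood at 0.27 (adjusted p = 0.0602). This removal takes out any shift that AT-rich or GC-rich genes share, whatever its source, and the source was not tested.

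Along the sterol pathway, 9 of 21 tested genes were higher at 5% O2 and none lower, with a median of 0.26, where 3.68% of all tested genes were higher. LSS, at -0.63 and not called in this fit, was called lower with no filter and with the replicate block. MSMO1, the methylsterol oxidase after CYP51A1, rose by a log2 fold change of 0.55. SC5D, a late desaturase, rose by 0.53 and IDI1, the isopentenyl diphosphate isomerase, by 0.58. With the trend removed, 3 genes of the list were called, SC5D (0.45) among them, where 1.49% of all tested genes were. The list's count depended on single libraries. It was 0 without untreated KO replicate 1, untreated KO replicate 2 or 5% O2 replicate 1 and 6 without 5% O2 replicate 2.

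Against 3.68% of all tested genes, 4 of the 17 genes of SREBP control were higher at 5% O2. Besides INSIG1 and INSIG2 these were PGRMC1, a sterol-binding membrane protein, at 0.33, and RNF145, a ubiquitin ligase of the endoplasmic reticulum, at 0.37. INSIG2 alone was left once the trend was removed. Of 14 genes of uptake and transport, 2 were higher, the sterol carrier STARD4 (0.56) among them. In fatty acid synthesis 2 of 15 were higher, the desaturases SCD (0.28) and FADS1 (0.30), and none with RLE scaling. SCD shares 29.7% of its 31-base words with other places on the chromosomes. With any 1 library left out, fatty acid synthesis had 0 calls at 5% O2, and SREBP control and uptake and transport had 0 to 1 each. No gene of efflux and storage (8 tested) or of the nonsterol branches (11 tested) passed.

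**Figure D3:**
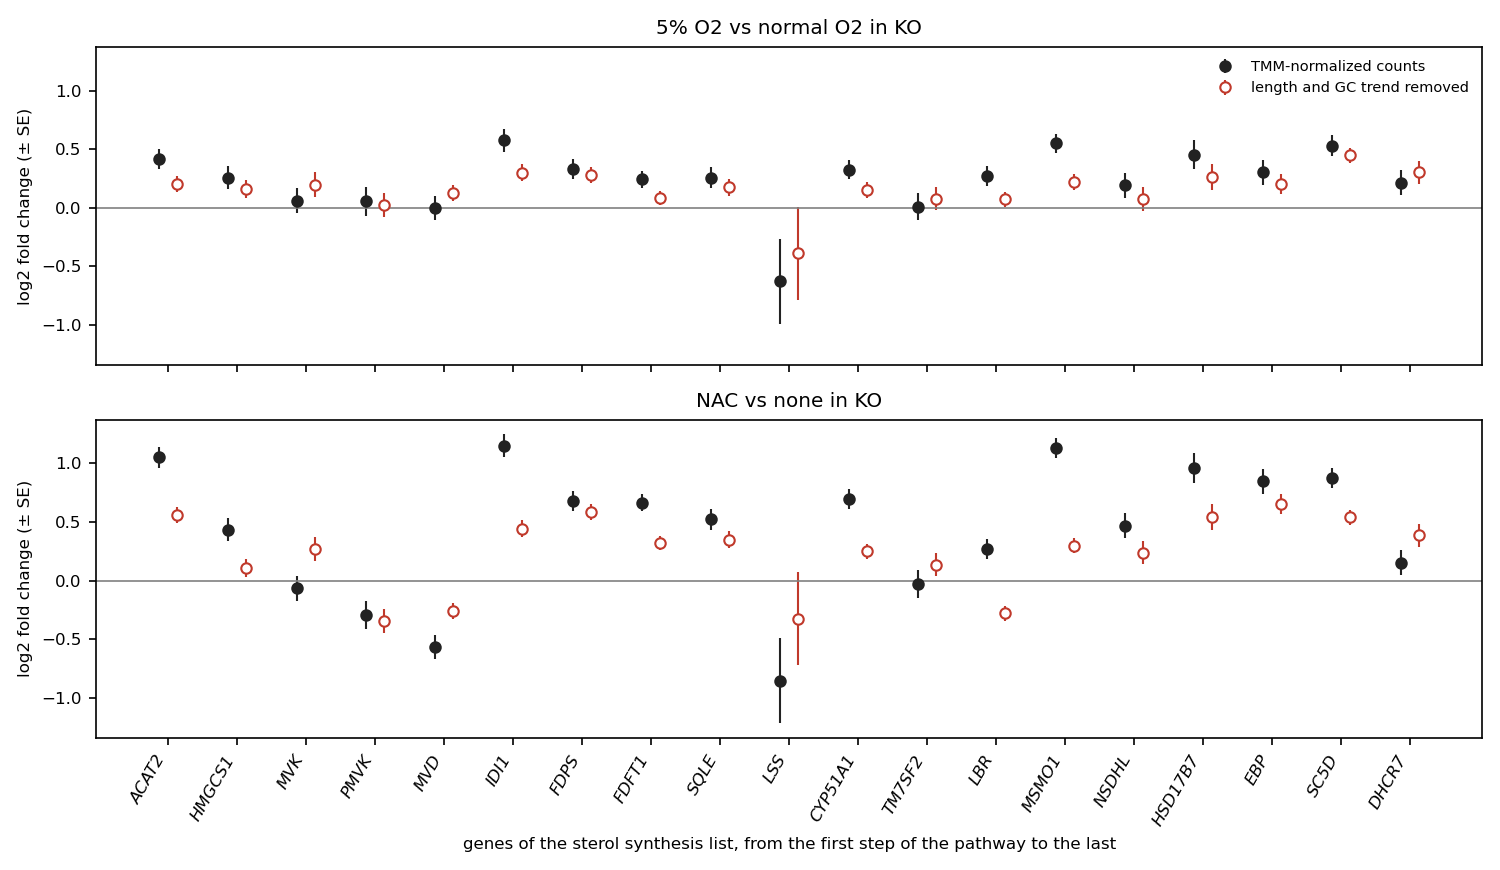
log2 fold change (y axis, bars ± SE) of 19 of the 21 tested sterol synthesis genes in the order of the pathway (x axis), at 5% O2 (upper panel) and with NAC (lower panel), both against untreated KO cells. With the trend removed (open red points) SC5D is at 0.45 at 5% O2, and MVD, PMVK and LBR lie below 0 with NAC.

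NAC in KO cells was compared with the same 2 untreated KO libraries, so that the 5% O2 and NAC comparisons share their controls. With NAC the genes split by direction, and the split ran through the SREBP control genes. The 3 enzymes and both INSIG genes were higher, and SREBF1, SREBF2 and SCAP were lower. All 8 were called, 5 higher and 3 lower, but 44.6% of all tested genes were called in this comparison, 23.8% higher and 20.8% lower. This split in direction coincides with a split by base composition, as given after the values.

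The enzymes rose without overlap between the groups. HMGCS1 was at 794 and 823 CPM with NAC against 625 and 574 CPM (log2 fold change 0.43 ± 0.098, adjusted p = 0.0037 in edgeR). SQLE was at 371.5 and 329 CPM against 245 and 243 CPM (0.52 ± 0.088, adjusted p = 0.000527). CYP51A1, at 287 and 305 CPM against 184 and 181 CPM, rose most of the 3, by 1.62-fold (0.70 ± 0.084, adjusted p = 5.9e-05 in edgeR). The HMGCS1 call was lost without untreated KO replicate 2 (0.37, adjusted p = 0.0541), and the other 2 enzymes stayed called with any 1 library left out.

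INSIG1 was at 149 and 138 CPM with NAC against 111 and 109.5 CPM, higher in both libraries (log2 fold change 0.38 ± 0.083, adjusted p = 0.0028 in edgeR). INSIG2 was at 14.0 and 8.45 CPM against 5.47 and 4.98 CPM, again without overlap but with the NAC libraries far apart. Its log2 fold change was 1.11 ± 0.22 (adjusted p = 0.00151 in edgeR), and it was 0.69 and still called without NAC replicate 1 (where 40.9% of all tested genes were called), the library with the mesenchymal markers. Without NAC replicate 2 it was 1.42. The part of the mesenchymal markers in these values was not tested.

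SREBF2 was at 385 and 375 CPM with NAC against 509 and 510.3 CPM, lower in both libraries by a log2 fold change of -0.42 ± 0.077 (adjusted p = 0.000868 in edgeR). SREBF1 was at 77.9 and 155.5 CPM against 176 and 182 CPM. NAC replicate 1 was thus at well under the level of the other NAC library, which itself lay not far below the untreated ones. The log2 fold change of -0.62 ± 0.23 (adjusted p = 0.0426 in edgeR) became -0.21 (adjusted p = 0.152) without NAC replicate 1, and DESeq2 gave an adjusted p of 0.11. SCAP was at 161.5 and 196 CPM against 212 and 218.5 CPM (-0.27 ± 0.10, adjusted p = 0.0466 in edgeR), and was at -0.14 (adjusted p = 0.271) without that library. The calls of SREBF1 and SCAP were also lost without untreated KO replicate 1 (adjusted p 0.116 and 0.126) or replicate 2 (0.147 and 0.197), and with the compared groups fitted alone (0.105 and 0.071).

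**Figure D4:**
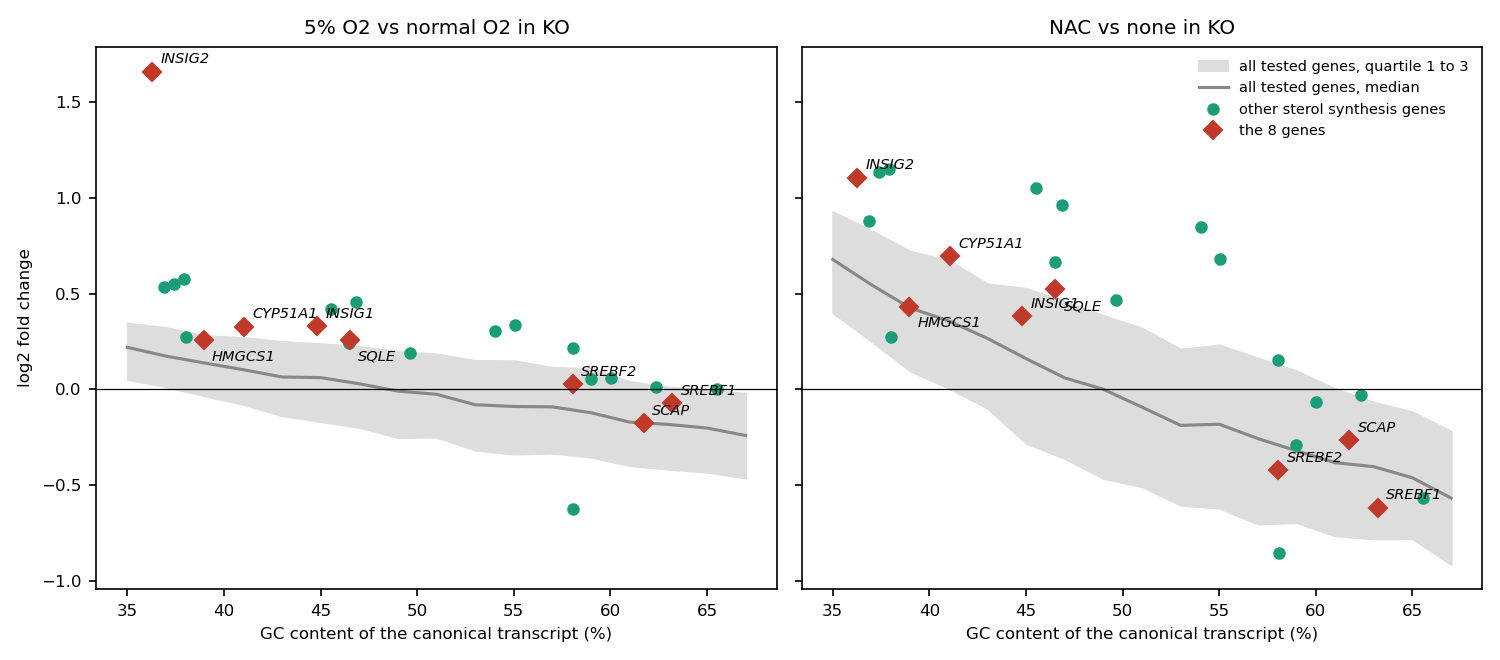
log2 fold change (y axis) against the GC content of the canonical transcript (x axis) for the 8 genes (red diamonds) and other tested sterol synthesis genes (green circles), over the median (line) and the range from the first to the third quartile (band) of all tested genes (grey). With NAC the grey median falls from left to right, and HMGCS1, INSIG1, SREBF2, SCAP and SREBF1 lie within the grey band.

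The trend with base composition was steeper with NAC than at 5% O2. The median log2 fold change was 0.39 for genes under 45% GC and -0.36 for genes over 55% GC, and the 3 genes that were lower are the 3 GC-rich ones of the 8. With the length and GC trend removed, none of the 8 was called lower. SREBF1 was at 0.06 and SREBF2 at 0.14, neither called, and SCAP turned to 0.31 and was called higher (adjusted p = 0.0116 in edgeR). SQLE (0.35, adjusted p = 0.00623) and CYP51A1 (0.25, adjusted p = 0.02) stayed called, whereas INSIG2 (0.43), INSIG1 (0.11) and HMGCS1 (0.10) did not. In this version 3 of the 8 were called, where 26.3% of all tested genes were.

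Without NAC replicate 1 as well, the trend-removed log2 fold change of INSIG2 was 0.009 and that of SREBF1 was 0.43 (adjusted p = 0.00132 in edgeR). SCAP was then at 0.40 (adjusted p = 0.000848), and 4 of the 8 genes were called, where 27.9% of all tested genes were. The direction of SREBF1 and SCAP with NAC therefore depended on whether the trend was removed, and that of SREBF2, -0.42 as counted, was 0.10 (adjusted p = 0.307) in this version. Whether the trend arose in the cells or in the libraries was not tested.

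Most genes of the sterol synthesis list were higher with NAC. Of 21 tested genes, 15 were higher and 1 lower, where 23.8% and 20.8% of all tested genes were. The median was 0.52 against 0.023 for all tested genes. IDI1 rose from 102 to 226 CPM (log2 fold change 1.15 ± 0.10), MSMO1 from 166 to 364 CPM (1.14 ± 0.085) and ACAT2, the acetoacetyl-CoA thiolase, from 143 to 297 CPM (1.05 ± 0.09). MVD, the mevalonate diphosphate decarboxylase, fell from 113 to 76.2 CPM (-0.57 ± 0.10). After the trend was removed, 13 were higher and 3 lower (MVD, PMVK and LBR), with a median of 0.32, where 26.3% of all tested genes were called. ACAT2 stood at 0.56, IDI1 at 0.44 and MSMO1 at 0.30, all called. LBR had been called higher as counted, at 0.27 (adjusted p = 0.0202 in edgeR), so its direction turned with the removal. Without NAC replicate 1 the counts were 15 higher and 3 lower, with the trend in place or removed. MSMO1 and SC5D share 13.4% and 10.4% of their 31-base words with other places on the chromosomes, FDPS 22% and HSD17B7 60.8%, so their counts carry the same doubt as those of CYP51A1. LSS, the lanosterol synthase, was at -0.86 ± 0.36 and not called, and 79% of its 31-base words also occur on scaffolds outside the chromosomes. It was called lower with no filter and with the replicate block. Its replicates lay apart, at 138.9 and 72.4 CPM in untreated KO and 67.8 and 48.8 CPM with NAC.

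Against 23.8% higher and 20.8% lower over all tested genes, 8 of the 17 genes of SREBP control were higher and 3 lower with NAC. Besides the members these included RNF139 (0.80) and ERLIN1 (0.55), which act in protein degradation at the endoplasmic reticulum, MBTPS2 (0.53), the protease that makes the second cut of SREBP, and ERLIN2 (0.24) and PGRMC1 (0.38). Without NAC replicate 1, 6 were higher and 1 lower (SREBF2), as without untreated KO replicate 2, and without untreated KO replicate 1 the counts were 5 and 1. ERLIN2 was not called with any 1 library left out, nor MBTPS2 without untreated KO replicate 1. After removal of the trend 3 were higher, SCAP and ERLIN1 (0.45) among them, and none was lower, where 26.3% of all tested genes were called. MBTPS1, which makes the first cut, was at -0.05 and 0.18 in the 2 versions, not called in either.

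Over all tested genes 23.8% were higher and 20.8% lower with NAC, and the list counts that follow are to be read beside these shares. In uptake and transport 3 of 14 genes were higher and 4 lower, with STARD4 (1.03) and the lysosomal acid lipase LIPA (0.90), both higher. Both are AT-rich, at 34.4% and 40.0% GC. The median of all tested genes with NAC was 0.68 around 35% GC and 0.36 around 41% GC. In efflux and storage 2 of 8 were higher, SOAT1, which esterifies cholesterol (0.70), and APOE (0.30), where 23.8% of all tested genes were. SOAT1 was not called with the trend removed or without untreated KO replicate 2 or NAC replicate 2, APOE was not called without NAC replicate 1, and without untreated KO replicate 1 neither was. In fatty acid synthesis, the branch tied most closely to SREBP-1, 4 of 15 were higher and 4 lower (2 and 3 without untreated KO replicate 1). FASN, the fatty acid synthase, fell from 2563 to 1096 CPM (log2 fold change -1.23 ± 0.10) and was at -0.21 with the trend removed, while the elongase ELOVL6 was at 0.78 and 0.70, called in both versions. Of 11 genes of the nonsterol branches 6 were higher, and none with the trend removed.

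The 2 treatments were also set against each other in KO cells. Of the 8 genes, 3 were called, where 29.1% of all tested genes were. SQLE (log2 fold change 0.26, adjusted p = 0.0426) and CYP51A1 (0.37, adjusted p = 0.00735) were higher with NAC than at 5% O2 in edgeR, and SREBF2 was lower (-0.45, adjusted p = 0.00174), each without overlap. INSIG2 had its 2 NAC libraries at 14.0 and 8.45 CPM, below the 16.5 and 16.5 CPM of 5% O2, with a log2 fold change of -0.55 (adjusted p = 0.07 in edgeR and 0.0339 in DESeq2). Once the trend was removed INSIG2 was the 1 gene called, at -0.99 (adjusted p = 0.0135 in edgeR), where 16.5% of all tested genes were, and SQLE, CYP51A1 and SREBF2 were at 0.17, 0.10 and -0.13. The SQLE call was also lost without either 5% O2 library or without NAC replicate 1 (adjusted p 0.157 to 0.2) and with RLE or upper quartile scaling (0.0731 and 0.0584) or the compared groups fitted alone (0.14), and that of CYP51A1 without 5% O2 replicate 2 (adjusted p = 0.0785). INSIG1 was at 0.05, HMGCS1 at 0.17, SCAP at -0.09 and SREBF1 at -0.55 (adjusted p = 0.0906).

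Over the 8 libraries the 3 enzymes ran together. On log2 CPM, Pearson's r was 0.96 for SQLE with CYP51A1, 0.95 for HMGCS1 with CYP51A1 and 0.93 for HMGCS1 with SQLE, and INSIG1 followed SQLE with r = 0.90. SREBF2 ran the other way from CYP51A1 (r = -0.68). These values describe 8 libraries of 4 groups that share the GC trend, so they carry no test. By the same measure, the genes most like INSIG2 included GBE1, a glycogen branching enzyme (r = 0.997), and BNIP3L, a mitophagy receptor (0.989). Those most like INSIG1 were PGRMC1 (0.992), RBMX (0.980) and HPRT1 (0.977), and those most like SREBF2 were HDLBP (0.993), LONP1 (0.991) and MAGEL2 (0.990). SREBF1 was closest to STRA6 (0.983), SCAP to TADA2B (0.986), HMGCS1 to CBWD1 (0.995), SQLE to ECHDC1 (0.995) and CYP51A1 to RCBTB2 (0.992).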

How the data were processed

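RNA-sequencing of WA26 hESCs was deposited by the authors as raw counts per gene, without normalization. By the study's methods, trim-galore trimmed the reads, hisat2 placed them on hg38, and featureCounts, at its default settings, gave the counts. The submitters' processing notes also name FastQC 0.11.9, and the annotation is not given in the sources used here. Default counting ignores strand and drops reads that fit several places, which can lower genes with copies. Of 12 labelled samples, 8 libraries were analysed, with groups taken from the labels.

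Genes were filtered with filterByExpr (minimum count 10), scaled by TMM and tested by quasi-likelihood in edgeR 4.0.16 (R 4.3.3), with 1 term for each of 4 groups (4 residual degrees of freedom, biological coefficient of variation 13.7%). P-values were two-sided and adjusted by Benjamini-Hochberg over the 15916 tested genes, and a gene was called at an adjusted p under 0.05. The standard error is the absolute log2 fold change over the square root of F, and intervals are 95%. Library totals were 31236968 to 41639350 counts, and intervals cover the spread between 2 libraries a group. The length and GC trend (canonical GENCODE transcripts, known for 94.4% of tested genes) was removed with mgcv 1.9.3. Other alternatives were DESeq2 1.42.0, RLE and upper quartile scaling, 2 other filters, a replicate block, a fit of the compared groups alone and leaving out each library. Removing the trend without NAC replicate 1 was added after seeing the data.

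The 8 genes, the 6 gene lists and the comparisons were chosen with earlier results of these data known, so no list counts as independent support. Besides the 8 genes, the rule named up to 4 called genes with the lowest p for each list and comparison and the 3 genes most like each of the 8, and other list genes named were chosen after their values were seen. Some genes that enter the counts, or that the rule picks, are not reported here. Copies are the share of 31-base words of the canonical transcript found elsewhere in hg38. The steps were tested on simulated counts. Matching genes by profile used Pearson's r on log2 CPM (prior count 2) over 8 libraries.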

Additional observations from a re-analysis of the deposited data

How the results depend on the processing

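With 2 libraries a group, leaving 1 out leaves a lone library that is assumed to vary like the others, and the copies of CYP51A1 and the low counts of INSIG2 set further limits. DESeq2, RLE and upper quartile scaling, 10 counts in every library and no filter turned the direction of none of the 8 genes, and each moved the median of all genes by under 0.1 (log2). The replicate numbers did not pair the samples (correlations of deviations -0.0226 to 0.0816), and with the replicate block 0, 3, 8 and 5 of the 8 genes were called in KO against WT, at 5% O2, with NAC and with NAC against 5% O2, the last against 3 without it (SREBF1 at -0.59 and INSIG2 at -0.58 were added). The block called 366, 1417, 7173 and 4796 of all 15916 genes in the same order. The causes of the changes below were not tested.

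In KO against WT, 1 of the 8 genes (SREBF1, 0.42) was called with no filter or with only the groups compared. All genes called went from 312 to 860 with DESeq2, 1252 with no filter, 1124 with only the groups compared and 188 with the length and GC trend removed, and were 64 to 78 with 1 library left out. SREBF2 and SCAP turned to -0.034 and -0.082 with the trend removed, and with 1 library left out HMGCS1 ran from -0.11 to 0.18 and SQLE from -0.019 to 0.12 (both lowest without WT replicate 2, with HMGCS1 at -0.035 without KO replicate 1).

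At 5% O2, 5 of the 8 genes were called with only the groups compared, 1 with the trend removed and 0 to 1 with 1 library left out. The sterol synthesis list had 14, 3 and 0 to 6 calls in the same order, and all genes had 3009, 224 and 36 to 513, with 2144 by DESeq2 and 2220 with no filter. The trend removed left 166 genes higher and 58 lower, against 586 and 657. SREBF1 turned to 0.23 and SCAP to 0.073 with the trend removed, and with 1 library left out SREBF1 ran from -0.18 to 0.029 (highest without 5% O2 replicate 1) and SREBF2 from -0.022 (without 5% O2 replicate 2) to 0.076.

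With NAC, the 8 genes had 3 calls with the trend removed, 4 with it removed and NAC replicate 1 left out, and 5 to 8 with 1 library left out, while all genes called were 3957, 4301 and 5031 to 7591 in the same order, against 7100. With the trend removed SREBF1, SREBF2 and SCAP were at 0.057, 0.14 and 0.31, and without NAC replicate 1 too at 0.43, 0.098 and 0.40.

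For NAC against 5% O2, 5 of the 8 genes were called with no filter, 1 with the trend removed and 1 to 4 with 1 library left out. With no filter, 2839 of all 21141 genes were called higher and 2471 lower. The sterol synthesis list had 7 calls with the trend removed and 5 to 13 with 1 library left out, against 12. All genes called were 3050 with only the groups compared, 2475 with the trend removed and 1354 to 5468 with 1 library left out, against 4635. With the trend removed INSIG1, SCAP and HMGCS1 turned to -0.10, 0.24 and -0.056, and with NAC replicate 1 also left out to -0.14, 0.33 and -0.029, with SREBF1 at 0.21. With 1 library left out INSIG1 ran from -0.0078 to 0.11 and SCAP from -0.23 to 0.041, both turning without NAC replicate 1.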
